A study of Homo sapiens with 28 samples.

Results

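The 10 genes described here encode the classical MHC class II molecules, their loading factors and their master regulator. They are HLA-DRA, HLA-DRB1, HLA-DPA1, HLA-DPB1, HLA-DQA1, HLA-DQB1, HLA-DMA, HLA-DMB, CD74 and CIITA. They were taken by symbol from the 56809 genes of the tables, from a list drawn up with earlier results of these data known, and all 10 passed the filter on low counts. U937 is a human histiocytic lymphoma line of monocytic character, and LPS is a bacterial cell wall component sensed through TLR4. Each clone carries a CRISPR knockout of 1 NF-kB subunit, and controls received guide RNAs with no specific target. The groups were p50-/- (2 clones), p52-/- (2), p65-/- (3), cREL-/- (2), RELB-/- (2) and control, CTR (3). Each of the 14 clones gave 1 library with LPS (500 ng/ml, 6 h time point) and 1 untreated library, 28 in all.

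MHC class II molecules present peptides from endocytosed material to CD4+ T cells. An alpha and a beta chain (DR, DP or DQ) assemble with the invariant chain CD74, and HLA-DM later exchanges a fragment of CD74 for a peptide. CIITA binds no DNA itself but joins a complex of RFX, CREB and NF-Y factors on the X and Y boxes of these promoters, and its own amount is known to set class II transcription in many cells. Monocytes carry class II molecules constitutively at modest levels, and interferon gamma raises them through IRF1 and CIITA.

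Libraries held between 12643400 and 22122400 estimated counts, so that 3 counts correspond to 0.134 to 0.233 CPM, the count scaled to the TMM-adjusted library total. Each clone gave 2 libraries, so the clone is the replicate, and p-values measure only the spread between these clones, whose derivation the labels do not detail. The labels place the clones in batches A, B and C, and batch A holds no CTR clone. RELA, the gene for p65, was at 3.20 to 8.19 TPM in p65 replicates 2 and 3, but at 52.1 TPM with LPS and 43.7 TPM untreated in the libraries labelled p65 replicate 1, above the highest CTR library (38.3 TPM). In CPM, RELA in p65 replicate 1 was at 58.3 with LPS and 53.6 untreated, within the CTR range of 46.7 to 61.2. Values without that clone are therefore given for p65 within batch C, for the correlations with CIITA and for the count of genes called in RELB. As batch A holds no CTR clone, that clone also enters the batch term behind the folds of the other knockouts. The RELB message was still present in the RELB clones (2.48 to 19.3 TPM, against 3.80 to 26.2 TPM in CTR), so its level does not check that label. REL, the gene for cREL, was at 7.105 TPM with LPS and 8.61 TPM untreated in cREL replicate 1. Those values lay within the range of the other knockouts (5.78 to 16.9 TPM). In cREL replicate 2 REL was at 2.49 TPM with LPS and 2.91 TPM untreated, against 10.4 to 14.7 TPM in CTR. The line was checked against marker lists: the monocytic and promyelocytic genes LYZ, ELANE, AZU1, CD33 and CD68 were found in every library, while MPO did not exceed 0.599 CPM and CD14 did not exceed 8.24 CPM.

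Promoter sequences show what these genes share beyond their function. Of the members, 8 have a window in the RefSeq promoter table (build GRCh38.p14), with 9 windows in all, and the 250 bases before the start were read. The Y box core CCAAT, searched on both strands, was in 7 of the 9 windows, against 32.01% of 35116 promoter windows. The X box core AACNGATG, also searched on both strands, was in 2 of 9 windows, those of HLA-DRB1 and HLA-DMB, against 1.652% of all. Both cores together were in these 2 windows and in 0.5126% of all. An NF-kB consensus, searched by name on both strands, was in 2 of the 9 windows (CD74 and 1 of HLA-DPA1), against 9.961% of all, and overlapped neither box. The 3 windows below carry both cores (HLA-DRB1 and HLA-DMB) or the Y box core alone (CD74), and are shown 5′ to 3′ on the strand of the gene with these cores in capitals. They lie at chr6:32589849-32590098, chr6:32941029-32941278 and chr5:150412911-150413160, each on the reverse strand. A match describes letters and does not show that a factor binds there.
HLA-DRB1: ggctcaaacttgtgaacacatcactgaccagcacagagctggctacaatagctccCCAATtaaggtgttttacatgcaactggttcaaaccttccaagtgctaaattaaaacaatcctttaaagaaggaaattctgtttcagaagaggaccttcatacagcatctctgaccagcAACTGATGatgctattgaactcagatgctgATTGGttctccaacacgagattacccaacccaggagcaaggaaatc
HLA-DMB: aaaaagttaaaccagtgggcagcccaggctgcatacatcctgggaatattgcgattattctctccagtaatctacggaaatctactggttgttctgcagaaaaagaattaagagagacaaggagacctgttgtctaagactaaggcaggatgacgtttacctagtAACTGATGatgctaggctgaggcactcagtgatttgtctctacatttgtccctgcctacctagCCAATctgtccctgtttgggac
CD74: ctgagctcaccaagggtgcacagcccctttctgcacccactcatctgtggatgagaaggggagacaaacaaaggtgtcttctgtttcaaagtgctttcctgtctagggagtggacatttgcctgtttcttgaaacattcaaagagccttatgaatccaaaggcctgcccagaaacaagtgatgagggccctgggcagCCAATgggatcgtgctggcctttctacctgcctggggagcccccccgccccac

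HLA-DRA encodes the DR alpha chain (chromosome 6, 32439842 to 32445046, forward strand, GRCh38 with GENCODE 29) and was the most abundant class II chain in TPM. In the RELB clones it had 1865 and 849.6 CPM with LPS and 1623 and 746.6 CPM untreated (replicates 1 and 2). In the cREL clones it had 702.8 and 40.6 CPM with LPS and 680.9 and 27.8 CPM untreated. In CTR the 3 clones had 50.2, 247.9 and 261.5 CPM with LPS and 50.7, 230.6 and 273.2 CPM untreated. Both RELB clones and cREL replicate 1 thus stood above every CTR library, and cREL replicate 2 stood below all of them. The p50 clones had 132.1 and 18.8 CPM with LPS and 148.1 and 18.7 CPM untreated, and the p52 clones had 86.1 and 201.03 CPM with LPS and 74.7 and 203.7 CPM untreated. The p65 clones had 99.5, 135.7 and 37.4 CPM with LPS and 92.3, 141.3 and 20.6 CPM untreated. The p52 clones, p65 replicates 1 and 2 and p50 replicate 1 lay within the CTR range, whereas p65 replicate 3 and p50 replicate 2 lay below every CTR library. The 2 libraries of a clone were mostly closer to each other than clones of 1 genotype were. Exceptions included p65 replicate 3, with 37.4 CPM with LPS and 20.6 CPM untreated, and CTR replicates 2 and 3, which lay near each other.

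By group mean, HLA-DRA had 1357 ± 718 CPM with LPS and 1185 ± 620 CPM untreated in RELB (SD, n = 2 clones), and 371.7 ± 468.3 CPM with LPS and 354.3 ± 461.9 CPM untreated in cREL (n = 2). It had 143.6 ± 81.3 CPM with LPS and 139.2 ± 91.2 CPM untreated in p52 (n = 2), 90.9 ± 49.7 CPM with LPS and 84.7 ± 60.7 CPM untreated in p65 (n = 3), and 75.4 ± 80.1 CPM with LPS and 83.4 ± 91.5 CPM untreated in p50 (n = 2). CTR had 186.5 ± 118.3 CPM with LPS and 184.8 ± 118.1 CPM untreated (n = 3). RELB and cREL were thus above CTR by mean, and p52, p65 and p50 below it. Every step between neighbours in the order of these means was smaller than the larger SD of the 2 groups, other than the step between RELB and cREL.

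**Figure D1:**
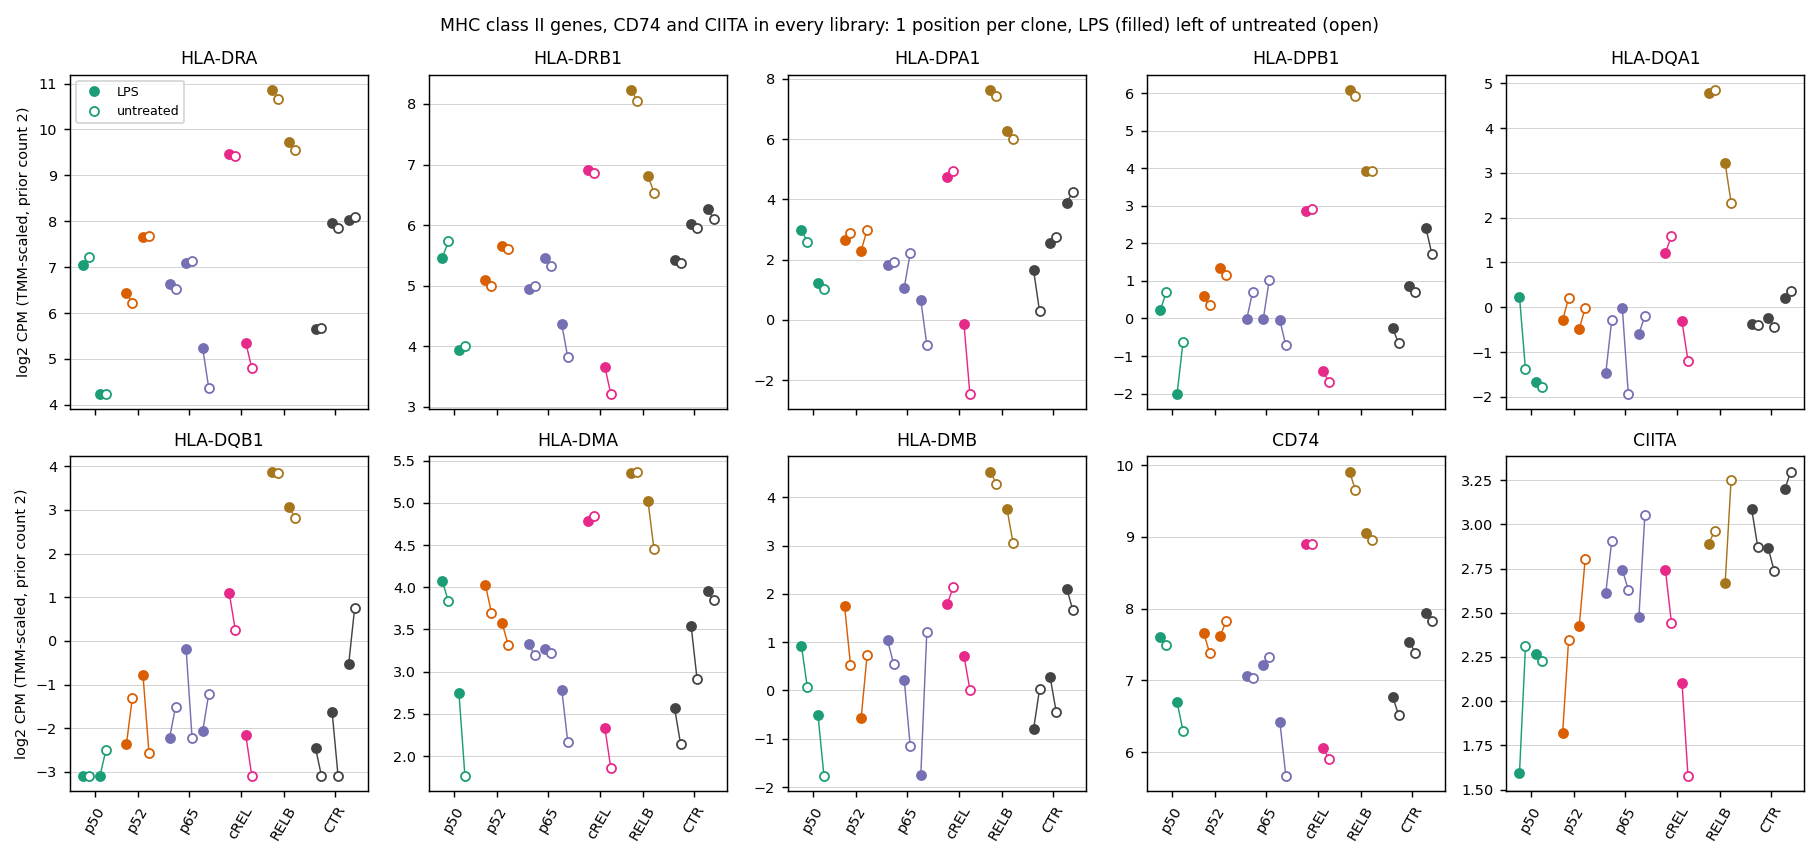
Level of each of the 10 genes in each of the 28 libraries, as log2 CPM with a prior count of 2; each pair of joined points is 1 clone, replicates in number order within a genotype, with LPS filled and untreated open. The RELB clones and cREL replicate 1 are the highest in the 9 panels other than CIITA, whose panel spans a far narrower axis.

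HLA-DRB1 encodes the main DR beta chain (chromosome 6, 32578769 to 32589848, reverse strand). Its clone means were 282.5 and 102.5 CPM in RELB and 117.9 and 10.8 CPM in cREL, against 41.9, 63.2 and 72.6 CPM in CTR. They were 48.4 and 15.5 CPM in p50, 33.0 and 49.5 CPM in p52, and 31.04, 41.8 and 17.2 CPM in p65. The order of clones resembled that of HLA-DRA, with both RELB clones above CTR and the cREL clones on either side of it. HLA-DRB5, a near-identical neighbour, ran from 2.32 to 207.1 CPM, and reads of the 2 genes could have been divided differently between them. The alleles that this line carries may also differ from the reference, so the levels of the beta chains are uncertain.

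The DP genes HLA-DPA1 (alpha chain, chromosome 6, 33064569 to 33080775, reverse strand) and HLA-DPB1 (beta chain, 33075926 to 33087201, forward strand) were less abundant and spread the most. HLA-DPA1 clone means were 184.98 and 70.8 CPM in RELB, 28.8 and 0.428 CPM in cREL, and 2.05, 6.15 and 16.8 CPM in CTR. They were 6.84 and 2.08 CPM in p50, 6.67 and 6.28 CPM in p52, and 3.56, 3.24 and 0.951 CPM in p65. From the lowest clone (cREL replicate 2) to the highest (RELB replicate 1) HLA-DPA1 differed 432-fold, and the other 12 clones lay in between, but cREL replicate 2 held 15 counts of it with LPS and 1 untreated, so this ratio is imprecise. HLA-DPB1 had clone means of 64.6 and 15.1 CPM in RELB and 7.27 and 0.228 CPM in cREL, against 0.618, 1.62 and 4.21 CPM in CTR. The other 3 knockouts held 0.329 to 2.27 CPM of HLA-DPB1, within or below the CTR range. The exons of HLA-DPA1 and HLA-DPB1 overlap on opposite strands, and the library kit does not mark strand, so reads from the overlap cannot be assigned to either gene.

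The DQ genes were close to the detection limit outside RELB and cREL replicate 1. HLA-DQA1 (alpha chain, chromosome 6, 32628179 to 32647062, forward strand) had 27.6 and 9.19 CPM with LPS and 28.8 and 4.91 CPM untreated in RELB. In CTR it had 0.682, 0.743 and 1.04 CPM with LPS and 0.653, 0.623 and 1.18 CPM untreated. cREL replicate 1 had 2.24 CPM with LPS and 2.92 CPM untreated, the next highest after RELB, and cREL replicate 2 had 0.700 CPM with LPS and 0.321 CPM untreated. In p50, p52 and p65 HLA-DQA1 lay between 0.143 and 1.06 CPM, that is 3 to 18.2 counts a library. HLA-DQB1 (beta chain, 32659467 to 32668383, reverse strand) had clone means of 14.4 and 7.62 CPM in RELB and 1.55 and 0.0528 CPM in cREL. In CTR its clone means were 0.0327, 0.104 and 1.07 CPM, and 6 of the 28 libraries were at 0, none of them from RELB. HLA-DQB1 shares exon sequence with the antisense gene HLA-DQB1-AS1, which these unstranded reads cannot separate.

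HLA-DMA and HLA-DMB encode the chains of the peptide exchange factor HLA-DM. HLA-DMA (chromosome 6, 32948613 to 32969094, reverse strand) had clone means of 40.9 and 26.99 CPM in RELB, 28.0 and 4.21 CPM in cREL, and 5.07, 9.45 and 14.8 CPM in CTR. It varied least among the class II genes, 9.73-fold between the lowest and highest clone. HLA-DMB (32934629 to 32941070, reverse strand) had 21.1 and 10.8 CPM in RELB and 3.83 and 1.22 CPM in cREL, against 0.680, 0.855 and 3.64 CPM in CTR. Here cREL replicate 1 exceeded CTR replicate 3 by only a small margin. Both genes share exon positions with the read-through gene AL645941.2, so part of their reads could belong to it, and HLA-DMA also overlaps exons of BRD2 on the opposite strand.

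CD74, the invariant chain, lies on another chromosome (5, 150401637 to 150412929, reverse strand) and had the same 4 highest clones as HLA-DRA. It had 963.1 and 532.7 CPM with LPS and 804.2 and 498.3 CPM untreated in RELB, and 479.8 and 66.5 CPM with LPS and 478.2 and 59.9 CPM untreated in cREL. In CTR it had 109.1, 186.01 and 246.1 CPM with LPS and 91.7, 167.4 and 226.6 CPM untreated. RELB and cREL replicate 1 again exceeded every CTR library, and cREL replicate 2 lay below them. Clone means of CD74 were 187.5 and 91.2 CPM in p50, 185.1 and 211.4 CPM in p52, and 132.2, 154.1 and 68.1 CPM in p65. Per length, CD74 and HLA-DRA were the highest members: over the 28 libraries CD74 ran from 73.5 to 1204 TPM and HLA-DRA from 22.07 to 2441 TPM.

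CIITA (chromosome 16, 10866222 to 10943021, forward strand) shared these highest clones only in part. By CPM its highest clones were CTR replicate 3, RELB replicate 2, CTR replicate 1 and RELB replicate 1, in that order. cREL replicate 1, among the highest for HLA-DRA and CD74, ranked 10 for CIITA. The exons of CIITA overlap those of DEXI on the opposite strand, whose reads cannot be separated from it. It had 7.28 and 6.24 CPM with LPS and 7.67 and 9.43 CPM untreated in RELB, against 8.37, 7.16 and 9.10 CPM with LPS and 7.20, 6.55 and 9.73 CPM untreated in CTR. The RELB and CTR values of CIITA overlapped. In cREL it had 6.58 and 4.18 CPM with LPS and 5.33 and 2.90 CPM untreated, and in p65 it had 6.00, 6.59 and 5.43 CPM with LPS and 7.38, 6.06 and 8.19 CPM untreated. In p50 it had 2.88 and 4.68 CPM with LPS and 4.83 and 4.58 CPM untreated, and in p52 3.42 and 5.23 CPM with LPS and 4.99 and 6.86 CPM untreated. CIITA clone means thus ran from 3.54 to 9.42 CPM, a 2.66-fold range, and 43.7 to 183.1 counts a library lie behind them. In CPM the clone mean of CIITA was below all 3 CTR clone means in each clone of p50, p52, p65 and cREL. The margin was slight for p65 replicate 3 (6.81 CPM against 6.85 CPM in CTR replicate 2), and these comparisons share the same CTR clones. In TPM CIITA ran from 0.244 to 4.47, because the effective length listed in the authors' table moved between 1948 and 15833 bases. In p50 that length was 14354 to 15833 bases in all 4 libraries, and CIITA stood at 0.244 to 0.416 TPM, against 0.951 to 4.04 TPM in CTR. By TPM the clone means of p50 and p52 were again below all CTR clones, but those of p65 and cREL were not. They were 1.70 to 3.84 TPM in p65 and 1.56 TPM in both cREL clones, against 1.55, 1.32 and 3.14 TPM in CTR.

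The question set by the design is how genotype compares with the difference between clones of 1 genotype. For HLA-DRA the SD of the 6 genotype means was 1.58 log2 CPM, the pooled SD of clones within a genotype was 1.65, and the root mean square of LPS minus untreated within a clone was 0.29. The first 2 SDs were thus similar, and the LPS step was far smaller. A genotype mean averages 2 or 3 clones and so varies less than a single clone does. The 2 SDs are therefore not like for like, and the first also holds part of the clone spread. The median over all genes tested was 0.31, 0.43 and 0.52 for these 3 quantities. For CD74 they were 0.93, 0.92 and 0.28, and for HLA-DRB1 0.99, 1.10 and 0.23. The DQ genes and HLA-DMB had more spread between genotypes than between clones: 1.78 against 0.84 for HLA-DQA1, 2.21 against 1.17 for HLA-DQB1 and 1.52 against 0.98 for HLA-DMB. For HLA-DPA1 the genotype and clone SDs were 2.04 and 1.88, for HLA-DPB1 1.92 and 1.48, and for HLA-DMA 0.76 and 0.94. CIITA had 0.39 between genotypes, 0.27 between clones and 0.39 between treatments. Its genotype SD was thus above the median of all genes, and its clone SD and LPS step were below theirs. CIITA too had more spread between genotypes than between clones, on a far smaller scale than the DQ genes.

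**Figure D2:**
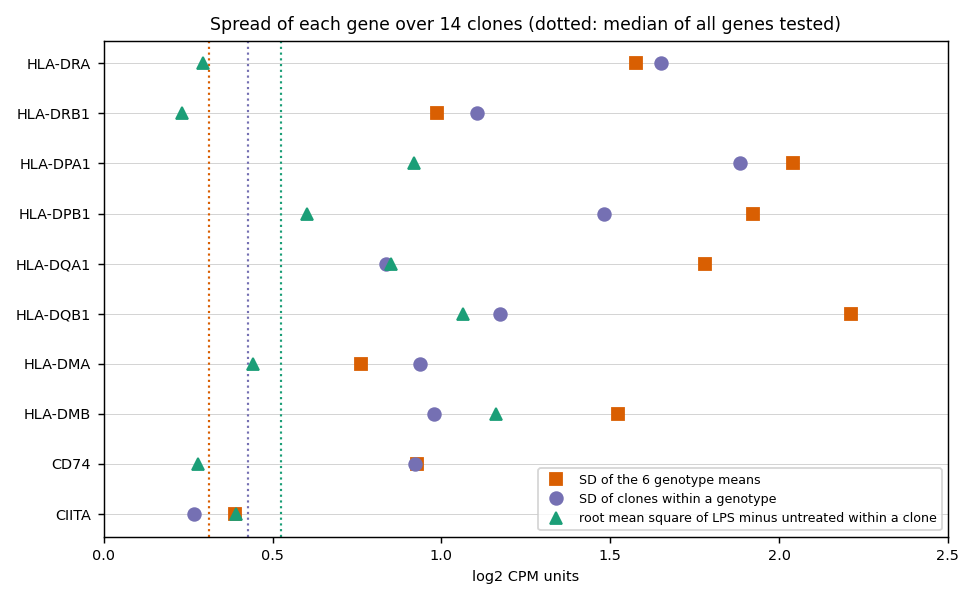
Spread of each gene in log2 CPM: SD of the 6 genotype means (squares), pooled SD of clones within a genotype (circles) and root mean square of LPS minus untreated within a clone (triangles), with dotted lines at the medians of all genes tested. HLA-DRA has 1.58 between genotypes and 1.65 between clones, HLA-DQA1 has 1.78 and 0.84, and CIITA 0.39 and 0.27.

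By the range of its 14 clone means, HLA-DPA1 ranked 2 of 18624 genes, HLA-DPB1 8, HLA-DQB1 26, HLA-DQA1 35, HLA-DRA 37 and HLA-DMB 108. HLA-DRB1 ranked 217, CD74 557, HLA-DMA 1130 and CIITA 11133. Within a genotype the ratio of the highest to the lowest HLA-DRA clone mean was 20.2 in cREL, 7.48 in p50, 4.77 in p65, 2.52 in p52, 2.19 in RELB and 5.30 in CTR. For CD74 it was 7.58 in cREL, at most 2.35 in the other genotypes. For CIITA it was at most 1.68, again in cREL. In 9 of the 9 members other than CIITA, RELB replicates 1 and 2 and cREL replicate 1 were the highest clones, a pattern that 0.623% of all genes tested shared and that was described after it had been seen.

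Genotype was tested with the 2 libraries of each clone summed, so that the clone is the unit (14 clones, edgeR quasi-likelihood F test over the 5 knockout terms, batch as a covariate, Benjamini-Hochberg over 20489 genes). It called 0 of 10 members, against 0.112% of all genes. Unadjusted, 5 of 10 had p under 0.05, against 8.93% of all genes, and DESeq2 called the same 5, against 3.75% of all genes: HLA-DPA1, HLA-DPB1, HLA-DQA1, HLA-DQB1 and HLA-DMB. HLA-DQA1 came nearest in edgeR, with adjusted p = 0.0765, followed by HLA-DQB1 with adjusted p = 0.163 and HLA-DMB with adjusted p = 0.328. HLA-DRA (adjusted p = 0.598), CD74 (0.587) and CIITA (0.658) were further from the threshold in that edgeR test. Without a batch term edgeR called HLA-DQA1 (adjusted p = 0.0106), against 0.127% of all genes, and likewise without RELB replicate 2 (adjusted p = 0.0176), against 0.0678% of all genes.

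The largest differences were those of RELB. Over clone sums the median log2 fold of the 10 members in RELB against CTR was 3.17, against -0.01 over all genes, and 9 members were higher in both RELB clones than in every CTR clone, against 15.5% of all genes. HLA-DQB1 had a log2 fold of 6.12 ± 1.56 (SE), HLA-DQA1 4.89 ± 0.98, HLA-DPB1 4.48 ± 1.63, HLA-DPA1 4.12 ± 1.77 and HLA-DMB 3.43 ± 1.11. HLA-DRA had 2.92 ± 1.57, CD74 2.07 ± 0.90, HLA-DMA 1.90 ± 0.85 and HLA-DRB1 1.86 ± 1.09. CIITA had 0.01 ± 0.35. edgeR called 0 of the 10, against 0% of all genes (0 of 20489), with adjusted p-values between 0.465 and 0.997. Unadjusted, 7 of the 10 had p under 0.05, against 8.27% of all genes, and DESeq2 called HLA-DQA1 and HLA-DMB, against 0.415% of all genes. In the fit of 28 libraries edgeR called 0 of 10 in RELB against CTR with LPS (0.0483% of all genes) and 0 of 10 untreated (0.0107%). The unadjusted counts there were 7 with LPS (9.8% of all genes) and 7 untreated (11%). DESeq2 called HLA-DQA1 with LPS (1.16% of all genes), and HLA-DQA1 and HLA-DPB1 untreated (1.17%). That fit treats the 2 libraries of a clone as independent, so its p-values for knockout against CTR can be too small. Without p65 replicate 1, whose label is in doubt, that edgeR fit called 141 of all genes in RELB with LPS and 140 untreated. With all clones it called 9 and 2. In both settings it called 0 of the 10 members.

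Within batch B, where CTR replicate 2 and RELB replicate 2 stand side by side, RELB minus CTR was 1.74 log2 CPM for HLA-DRA, 0.69 for HLA-DRB1, 3.50 for HLA-DPA1, 3.13 for HLA-DPB1, 3.12 for HLA-DQA1, 5.31 for HLA-DQB1, 3.49 for HLA-DMB, 1.51 for HLA-DMA, 1.55 for CD74 and 0.16 for CIITA. This is 1 clone against 1, with no test. RELB replicate 1 is in batch A, where no CTR clone was available. Without RELB replicate 1 the fitted log2 fold of HLA-DRA over clone sums was 1.18, and without RELB replicate 2 it was 4.08. Leaving out RELB replicate 2 also made edgeR call HLA-DQA1, with LPS (adjusted p = 0.00156) and untreated (adjusted p = 0.00475), where the share of all genes called was 0.449% with LPS and 0.18% untreated, on the assumption that the remaining RELB clone varies like the others.

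**Figure D3:**
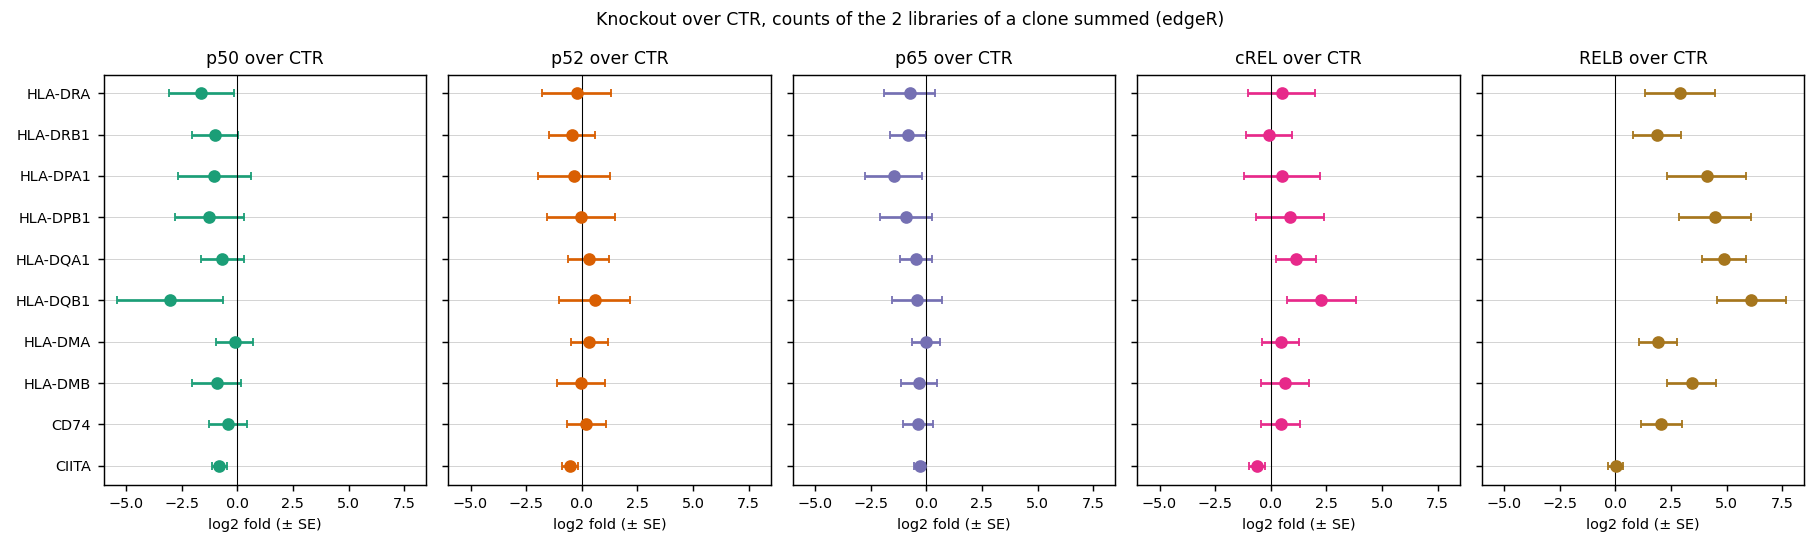
Log2 fold of each knockout over CTR with its SE for the 10 genes, from edgeR on the summed counts of each clone. In RELB 9 genes lie between 1.86 (HLA-DRB1) and 6.12 (HLA-DQB1) and CIITA at 0.01; in the other knockouts most intervals of 1 SE include 0.

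The other knockouts lay nearer to CTR. Over clone sums the members had a median log2 fold of -0.96 (p50), -0.04 (p52), -0.46 (p65) and 0.49 (cREL), against -0.04, -0.01, 0.00 and -0.01 over all genes. edgeR called 0 of 10 members in each, against 0.00488% of all genes in p50, p52 and cREL and 0.298% in p65. It also called 0 of 10 in the fit of 28 libraries, where the share of all genes called was 0.129% with LPS and 0% untreated in p50, 0.0698% and 0% in p52, 0.993% and 0.0537% in p65, and 0.199% and 0% in cREL. DESeq2 called 0 members in all of these, and gave no adjusted p for HLA-DQB1 in p65 untreated. HLA-DRA had log2 folds of -1.62 ± 1.46 (p50), -0.24 ± 1.53 (p52), -0.75 ± 1.14 (p65) and 0.48 ± 1.49 (cREL; SE). Each of these intervals is wide, so a difference of a few fold was not detectable with these clones. The 2 cREL clones carry that estimate in opposite directions: it was -2.62 without cREL replicate 1 and 1.64 without cREL replicate 2. These 2 clones also differed in their REL message, as given above, and any link to class II levels was not tested.

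In CPM, clone means of the members did not overlap CTR in a few cases. In p50, HLA-DQA1, HLA-DQB1 and CIITA were below all CTR clones (10.4% of all genes were), and in p65 HLA-DRB1, HLA-DQA1 and CIITA were (6.3% of all genes). CIITA alone was below in p52 (11.4%) and in cREL (10.4%). Some margins were slight: HLA-DQA1 had 0.665 CPM in p50 replicate 1 against 0.668 in CTR replicate 1. HLA-DRB1 had 41.80 CPM in p65 replicate 2 against 41.88 in CTR replicate 1, and HLA-DQB1 was near 0 in p50. In TPM these HLA genes overlapped CTR in both knockouts, as did CIITA in p65 and cREL. HLA-DQA1, for example, had 0.822 TPM in p50 replicate 1, against 0.748 in the highest CTR clone. CIITA had log2 folds over clone sums of -0.80 ± 0.35 (p50), -0.53 ± 0.35 (p52), -0.28 ± 0.27 (p65) and -0.62 ± 0.35 (cREL; SE), and none passed (edgeR adjusted p = 0.820, 0.869, 0.726 and 0.896). With the effective length as an offset the fold of CIITA was -2.47 in p50 and -1.73 in p52, again not called. In p65 the fold of CIITA turned positive with that offset, as given in the closing section. The unadjusted counts of members under 0.05 were 1 in p50 over clone sums (5.93% of all genes), 1 in p50 with LPS (9.9%), 1 in p52 with LPS (9.87%) and 1 in cREL untreated (5.78%), each of them CIITA, and 0 in the other tests of these 4 knockouts. For p65 within batch C alone (2 clones against 2 CTR clones, without the clone whose label is in doubt) the log2 fold of HLA-DRA was -0.95 ± 0.94 (SE; edgeR adjusted p = 0.805), and edgeR called 0 of 10 members.

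The LPS difference was well below the spread of clones for HLA-DRA, HLA-DRB1, CD74, HLA-DMA, HLA-DPA1 and HLA-DPB1, but near or above it for the other 4 genes. The root mean square of LPS minus untreated was 1.16 log2 CPM for HLA-DMB, 0.85 for HLA-DQA1 and 1.06 for HLA-DQB1, about as large as their SDs between clones, which are given above. It was 0.92 for HLA-DPA1 and 0.60 for HLA-DPB1. Over the clones, LPS minus untreated averaged 0.14 ± 0.27 log2 CPM for HLA-DRA (SD, n = 14 clones; higher with LPS in 9), 0.17 ± 0.23 for CD74 (12 of 14), 0.12 ± 0.21 for HLA-DRB1 (11 of 14), 0.34 ± 0.30 for HLA-DMA (12 of 14) and -0.14 ± 0.38 for CIITA (6 of 14). The highest single value was 0.86 for HLA-DRA, in p65 replicate 3. edgeR called 0 of 10 members with LPS in every genotype, where the share of all genes called was 0.0161% in p50, 0.0215% in p52, 0.0268% in p65, 0.0107% in cREL, 0.129% in RELB and 0.408% in CTR. The unadjusted count of members was 0 in each, DESeq2 called 0, and so did edgeR with each clone as a block. The response of each knockout minus that of CTR likewise gave 0 of 10 members, against 0.0161% of all genes for p65 and 0% for the others, with an unadjusted count of 0 and none by DESeq2. In CTR the log2 fold with LPS was -0.01 ± 1.13 for HLA-DRA, 0.16 ± 0.67 for CD74 and 0.07 ± 0.29 for CIITA (SE). These folds, the unadjusted counts and the DESeq2 calls come from fits with no term for the clone. Their SEs therefore include the spread between clones, and their p-values for LPS can be too large. Only the fit with each clone as a block used the pairing, so small steps shared by most clones are not excluded.

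Whether CIITA followed the class II genes was asked over the 14 clones, with log2 CPM means of the 2 libraries and permutation tests of 100000 resamples, adjusted over 18 relations (9 for the level and 9 for the LPS response). For the level, Pearson's r between CIITA and the 9 other members ran from 0.292 (HLA-DMA) to 0.549 (HLA-DRB1), and 0 of 9 passed (lowest adjusted p = 0.358). With HLA-DRA, r was 0.459 (p = 0.0989, adjusted p = 0.364) and Spearman's rho 0.420 (p = 0.137, adjusted p = 0.411). Without the 2 clones farthest from the CIITA median (cREL replicate 2 and p50 replicate 1), r with the 9 members was 0.205 to 0.467. Without p65 replicate 1, r was 0.301 to 0.571 and 0 of 9 passed. For the LPS response, r was -0.184 to 0.436 and 0 of 9 passed (lowest adjusted p = 0.364).

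CIITA differed with batch: the clones of batch C lay at 6.32 to 9.42 CPM, and those of batch A at 3.54 to 7.47 and of batch B at 3.86 to 7.83. With each gene centred on its batch and clones permuted within batches, r between CIITA and the members was 0.584 to 0.750. It was 0.733 for HLA-DRA (permutation p = 0.00911, adjusted p = 0.0429; rho 0.802, adjusted p = 0.0289), and 4 of 9 members passed by r, namely HLA-DRA, HLA-DRB1, HLA-DPA1 and HLA-DPB1. Batch C holds only CTR replicates 1 and 3 and p65 replicates 2 and 3, and batch A no CTR clone, so centring on batch also removes part of the difference between genotypes, and these cannot be told apart. A batch holds 4 or 5 clones, too few for a correlation within it. Centred on genotype, which keeps only differences between clones of 1 genotype, r was 0.274 to 0.751 and 0 of 9 passed. With log2(TPM + 1) r was 0.242 to 0.398, with 0 of 9 passing. Within batch A, RELB replicate 1 held 1744 CPM of HLA-DRA with 7.47 CPM of CIITA, cREL replicate 2 held 34.2 CPM with 3.54 CPM, and p50 replicate 2 held 18.7 CPM with 4.63 CPM. Within batch B, RELB replicate 2 held 798.1 CPM of HLA-DRA with 7.83 CPM of CIITA, cREL replicate 1 held 691.9 CPM with 5.96 CPM, and CTR replicate 2 held 239.3 CPM with 6.85 CPM. Higher HLA-DRA thus came with higher CIITA in some pairs of clones of a batch and not in others, and the span of CIITA was far narrower.

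**Figure D4:**
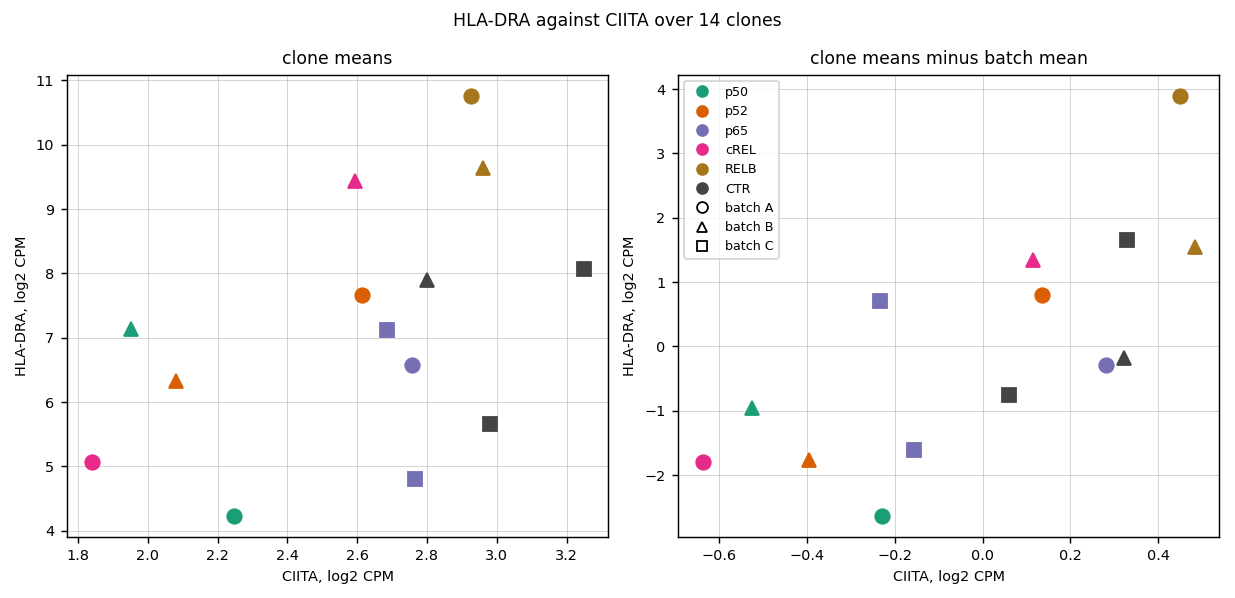
HLA-DRA against CIITA over the 14 clones, log2 CPM, colour by genotype and shape by batch: clone means on the left (r = 0.459) and the same values minus their batch mean on the right (r = 0.733). On the left, clones near 2.8 on the CIITA axis, which belong to batches A, B and C, span most of the HLA-DRA axis.

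The other class II genes varied together over the clones. Pearson's r over the 14 clones among the 9 members without CIITA was 0.784 to 0.982 (36 pairs, median 0.921) and Spearman's rho 0.600 to 0.965 (median 0.822), given as a description. Ranked by r with HLA-DRA among 18623 genes, CD74 was 1, HLA-DRB1 2, HLA-DPB1 3 and HLA-DMA 4, and CIITA was 1727. Among genes outside the list with at least 5 CPM, the 3 most like HLA-DRA were HLA-DRB5 (r = 0.930), SNX29 (0.862) and AGO3 (0.841). Those most like CD74 were HLA-DRB5 (0.918), ITGAX, which encodes the integrin CD11c (0.888), and GTPBP8 (0.851). Those most like CIITA were MAP2K3, a kinase of the p38 pathway (0.825), PTGER4, a prostaglandin E2 receptor (0.818), and FAM49A (0.814). HLA-DRB5 had a log2 fold of 2.25 ± 1.38 (SE) in RELB against CTR over clone sums (edgeR adjusted p = 0.704).

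Genes around the class II pathway were read from lists chosen beside the members. Of 10 class II relatives, 8 had a row and 4 were tested: HLA-DRB5, HLA-DPB2, HLA-DOA and HLA-DOB, the last 2 forming the inhibitor of HLA-DM. HLA-DOB reached 3.57 CPM and HLA-DOA 1.79 CPM at most, while HLA-DQA2 and HLA-DPA2 were at 0 in all 28 libraries. Of the tested genes, none of these 4, of the 7 promoter complex genes, of 8 interferon gamma pathway genes, or of 7 antigen processing genes was called in any comparison by edgeR. The promoter complex was present throughout: RFX5 ran from 51.5 to 111.4 CPM, RFXANK from 16.2 to 52.2, RFXAP from 1.09 to 4.68, and NFYA from 134.2 to 271.5. IFNG, which encodes interferon gamma, was at 0 in all 28 libraries.

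Of 6 regulators of CIITA, 2 were called, each in 1 comparison. PRDM1, which encodes the repressor Blimp-1 that is known to silence CIITA in plasma cells, rose with LPS in CTR, at 13.3, 30.6 and 15.8 CPM with LPS and 3.74, 13.8 and 3.52 CPM untreated (log2 fold 1.70 ± 0.29, SE; edgeR adjusted p = 0.00617). It was higher with LPS in 3 of 3 CTR clones, and LPS minus untreated for CIITA in the same clones was 0.21, 0.13 and -0.10 log2 CPM. EZH2, a histone H3 lysine methyltransferase of the Polycomb complex, fell in RELB against CTR with LPS, at 40.5 and 47.8 CPM in RELB against 122.6, 104.9 and 119.2 CPM in CTR (log2 fold -1.25 ± 0.23, SE; edgeR adjusted p = 0.0486). Untreated, EZH2 had 59.4 and 48.2 CPM in RELB against 121.7, 103.3 and 108.9 CPM in CTR (log2 fold -0.92 ± 0.22, edgeR adjusted p = 0.136), and over clone sums its adjusted p was 0.465. Any part of EZH2 in the class II levels was not tested.

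Markers of other antigen-presenting cells were read because they would carry class II messages too. MS4A1, CD1C, FCER1A and CD3D, defining markers of B cells, dendritic cells and T cells, were at 0 in all 28 libraries. Not all B cell markers were absent: the B cell transcription factors PAX5 and EBF1 were found in every library, at 3.66 to 14.3 CPM and 2.04 to 11.5 CPM, each lowest in RELB replicate 1 untreated and highest in CTR replicate 1 with LPS. Their part in the class II levels was not tested. The summed level of the 6 dendritic cell markers was at most 1.08 TPM in RELB and at most 1.66 TPM in CTR. That of the 5 T cell markers was 3.70 to 8.94 TPM in RELB and 7.02 to 8.80 TPM in CTR. The monocytic list summed to 2919 to 3667 TPM in RELB and 1762 to 5353 TPM in CTR. In bulk RNA a larger share of cells with class II messages and more message per cell cannot be told apart.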

How the data were processed

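Per the labels' protocols, polyadenylated RNA of each library was copied into cDNA, amplified over 13 PCR cycles and sequenced as paired reads without molecular identifiers. The authors deposited estimated counts per gene symbol, which are not scaled and were 41.0 to 47.5% whole numbers among nonzero values, TPM that they had scaled to a common total, and an effective length per gene and library. Per the submitters' processing notes, FastQC 0.11.7, Salmon 0.11.3 and build GRCh38 were used; no further setting was given in the sources used here. All value columns were matched to samples, with 0 left unused, and all 56809 symbols matched GENCODE 29.

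Counts were rounded and fitted in R 4.3.3 with edgeR 4.0.16 (filterByExpr with minimum count 10 and minimum total 15, TMM scaling, robust quasi-likelihood). The fit of 28 libraries held 12 groups plus batch (18624 genes, 14 residual degrees of freedom, coefficient of variation 31.7%), and the fit of clone sums held genotype plus batch over 14 clones (20489 genes, 6 residual degrees of freedom, 30.4%). Benjamini-Hochberg adjustment ran over all genes of a comparison, with a threshold of 0.05. Log2 CPM used a prior count of 2. DESeq2 1.42.0 was among the alternatives. The scripts were tested on simulated data. The 2 libraries of each clone pair: their deviations from the group means correlated at 0.203 to 0.441, and the pairing comes from the shared genotype and replicate number in the labels. Within-group pairs of libraries correlated at 0.947 to 0.969 over genes, and none of 20 pairs were identical.

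The members and the other gene lists were chosen with earlier results of these data known. The rule for named genes took all 10 members, at most 4 called and 2 other genes per further list and comparison, and the 3 genes most like HLA-DRA, CD74 and CIITA. Further genes of the lists of relatives, promoter complex and cell markers are named beyond that rule and were chosen after their values were seen. The floor of 3 counts covers counting error only; SDs are over clones, and SEs come from the edgeR fits. Promoter sequences are RefSeq's (GRCh38.p14). Some of the listed genes are not reported here.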

Additional observations from a re-analysis of the deposited data

How the results depend on the processing

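The count of 0 members called held in all 27 comparisons with other size factors (RLE) and with an effective length offset, in the 3 p65 comparisons within batch C alone, and in the 11 LPS comparisons with the replicate block, which takes each clone as a block and called 0. DESeq2 called 1 member in RELB against CTR with LPS, 2 untreated, 2 over clone sums and 5 for genotype. Without the filter on low counts, edgeR called 9 in each of these 4 comparisons (1.14, 1.41, 0.997 and 5.5% of all genes), 3, 1 and 1 in p50 against CTR with LPS, untreated and over clone sums (1.05, 0.45 and 0.665%), 4, 3 and 3 in p65 (2.6, 2.6 and 3.11%), and 1 in cREL with LPS (0.952%). In that fit of 38219 genes the quasi-dispersion of HLA-DRA over clone sums was 0.613, against 22.2 with the filter, so a smaller spread entered its test. Without a batch term 1 member was called for genotype. With 1 clone left out the counts ranged from 0 to 1 for RELB with LPS, RELB untreated and genotype, the 1 arising without RELB replicate 2.

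For CIITA and the level of the other members, 4 of 9 relations passed when centred on batch and 0 in every other setting. The log2 fold of CIITA in RELB over clone sums, 0.01, turned to -0.10 without a batch term and to -0.23 with the length offset, and that in p65, -0.28, turned to 0.10 with the length offset; with 1 clone left out the RELB value lay between -0.18 and 0.13. For HLA-DRA over clone sums, leaving out 1 clone gave -2.11 to 0.99 in p52, -1.68 to 0.40 in p65 and -2.62 to 1.64 in cREL, all on both sides of 0. The cause was not tested. The DQ genes, HLA-DMB, HLA-DPA1 and HLA-DPB1 rest on few counts in some libraries (lowest counts of 3 for HLA-DQA1, 0 for HLA-DQB1, 3 for HLA-DMB, 1 for HLA-DPA1 and 2 for HLA-DPB1), which limits their folds, ranges and ranks.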
